A study of Mus musculus with 12 samples.

Results

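The genes described here make up the inducible arm of the proteasome and the main path of peptide presentation on major histocompatibility complex (MHC) class I. They were the 10 genes whose symbols matched a list of Psmb8, Psmb9, Psmb10, Psme1, Psme2, Tap1, Tap2, B2m, H2-K1 and H2-D1. All 10 were found, among 29030 genes in the deposited tables of 4 h and 24 h. Cardiac fibroblasts, the cells that lay down the matrix of the heart, were isolated from C57BL/6 mice and kept in culture with serum. They received ethanol vehicle or 6 µM MCB-613-10-1, a derivative of MCB-613 that the series presents as anti-fibrotic, and were taken after 4 h or 24 h. The 4 groups (vehicle at 4 h, compound at 4 h, vehicle at 24 h, compound at 24 h) had 3 libraries each and shared strain, tissue and medium. Age, sex and number of animals were not given in the sources used here, nor whether the 3 libraries of a group came from separate cultures, so p-values measure the spread between these libraries, which may be technical.

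Proteasomes cut proteins into peptides. Their barrel-shaped core has proteolytic beta subunits that immune signals can exchange: Psmb8, Psmb9 and Psmb10 encode the inducible subunits that take the places of the constitutive Psmb5, Psmb6 and Psmb7 products, and the core with the inducible subunits is called the immunoproteasome. Psme1 and Psme2 encode the alpha and beta chains of the PA28 activator cap. Peptides enter the endoplasmic reticulum through the transporter made of the Tap1 and Tap2 products and are loaded on class I molecules, which consist of a heavy chain (H2-K1 or H2-D1) and beta-2-microglobulin (B2m). Interferon gamma, acting in part through IRF1, is a well-known inducer of these genes, and NLRC5 is a known coactivator of class I genes. Immunoproteasome subunits are also made constitutively in many cells of the blood lineage, macrophages among them.

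On GRCm39, the build of the deposited tables, 6 of the members lie on chromosome 17 in the MHC region. In order these are H2-K1 (34214991 to 34219321), Psmb9 (34400961 to 34406738), Tap1 (34406527 to 34416199), Psmb8 (34416695 to 34420428), Tap2 (34422501 to 34435295) and H2-D1 (35481706 to 35486475). Psme1 (55815580 to 55818986) and Psme2 (55824898 to 55828570) are neighbours on chromosome 14, Psmb10 (106662367 to 106665076) is on chromosome 8, and B2m (121978167 to 121983564) is on chromosome 2. The gene models of Psmb9 and Tap1 run in opposite directions and overlap by 212 bases, and whether the counting used strand was not given, so reads of that stretch cannot be assigned to either gene with certainty. H2-K1 and H2-D1 are close paralogs of each other and of the H2-Q genes, and Psme2 has a copy, Psme2b, that had between 235 and 831 counts per library. How reads divide within these families is therefore uncertain.

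The stretch between the starts of Psmb9 and Tap1 is shown because both genes are read outward from it and both fell at 24 h. The stretches before B2m, H2-K1 and H2-D1 are shown because these genes did not fall, and that before Psmb8 because it held the sole gamma-activated site match among the members. Sequences are from RefSeq on GRCm38.p6, read 5′ to 3′ along the named strand. Of the 10 members, 9 had an entry, with 11 starts in all, and Tap2 had none. Each runs to the base before the start, and for H2-K1, which has more than one start, the outermost was used. Capitals mark matches on either strand to the core of the interferon-stimulated response element (GAAA, any 2 bases, then GAAA), the gamma-activated site (TTCNNNGAA), an NF-kappa-B core (GGGA, any 4 bases, then CC) or the core of the antioxidant response element (TGACNNNGC), which NRF2 binds. The CCAAT box was searched too and is left in lower case.
Psmb9 to Tap1, plus strand, chr17:34187331-34187555: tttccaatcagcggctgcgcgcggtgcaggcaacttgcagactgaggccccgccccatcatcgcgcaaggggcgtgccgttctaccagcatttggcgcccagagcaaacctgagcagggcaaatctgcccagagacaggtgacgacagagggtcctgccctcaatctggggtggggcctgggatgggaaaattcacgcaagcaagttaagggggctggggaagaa
Psmb8, plus strand, chr17:34197945-34198194: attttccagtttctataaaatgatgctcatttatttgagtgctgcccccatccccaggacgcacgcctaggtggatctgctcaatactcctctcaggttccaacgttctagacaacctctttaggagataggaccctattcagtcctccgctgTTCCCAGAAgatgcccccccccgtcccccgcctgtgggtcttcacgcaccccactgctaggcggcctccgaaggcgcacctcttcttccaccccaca
B2m, plus strand, chr2:122147437-122147686: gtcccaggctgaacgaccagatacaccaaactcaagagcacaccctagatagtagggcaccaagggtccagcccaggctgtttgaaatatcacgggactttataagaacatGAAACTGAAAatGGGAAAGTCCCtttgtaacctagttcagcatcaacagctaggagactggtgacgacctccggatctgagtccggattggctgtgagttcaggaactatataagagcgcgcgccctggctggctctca
H2-K1, minus strand, chr17:34000348-34000597: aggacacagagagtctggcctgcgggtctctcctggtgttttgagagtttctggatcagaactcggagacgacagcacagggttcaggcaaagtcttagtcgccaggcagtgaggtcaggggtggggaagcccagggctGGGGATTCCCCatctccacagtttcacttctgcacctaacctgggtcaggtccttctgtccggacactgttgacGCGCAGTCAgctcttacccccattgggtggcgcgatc
H2-D1, plus strand, chr17:35262844-35263093: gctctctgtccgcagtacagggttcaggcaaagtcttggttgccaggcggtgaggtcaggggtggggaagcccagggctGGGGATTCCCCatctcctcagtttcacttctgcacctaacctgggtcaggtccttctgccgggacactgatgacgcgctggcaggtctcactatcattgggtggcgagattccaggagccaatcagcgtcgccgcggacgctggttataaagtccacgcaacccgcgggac

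The 225 bases between Psmb9 and Tap1 held none of the 4 capitalised motifs, and a CCAAT box lay just before the Psmb9 start. B2m held an interferon-stimulated response element core from 139 to 130 bases before its start, followed after 2 bases by an NF-kappa-B core that matched on both strands. H2-K1 and H2-D1 shared an NF-kappa-B core of the same 11 letters, GGGGATTCCCC, which also matched on both strands. The antioxidant response element match of H2-K1 lay 37 to 29 bases before the start shown. No capitalised motif was found in the 250 bases before the starts of Psmb10, Psme1 or Psme2. Among the 250 bases before all 32851 RefSeq starts, the interferon-stimulated core was found in 2.98%, the gamma-activated site in 7.02%, the NF-kappa-B core in 17.6%, the antioxidant core in 10.2% and the CCAAT box in 33.8%. A match describes letters and does not show that a factor binds there. Sites farther away and sites that depart from these letters were not searched, so the lack of a match does not show that a site is absent.

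**Figure D1:**
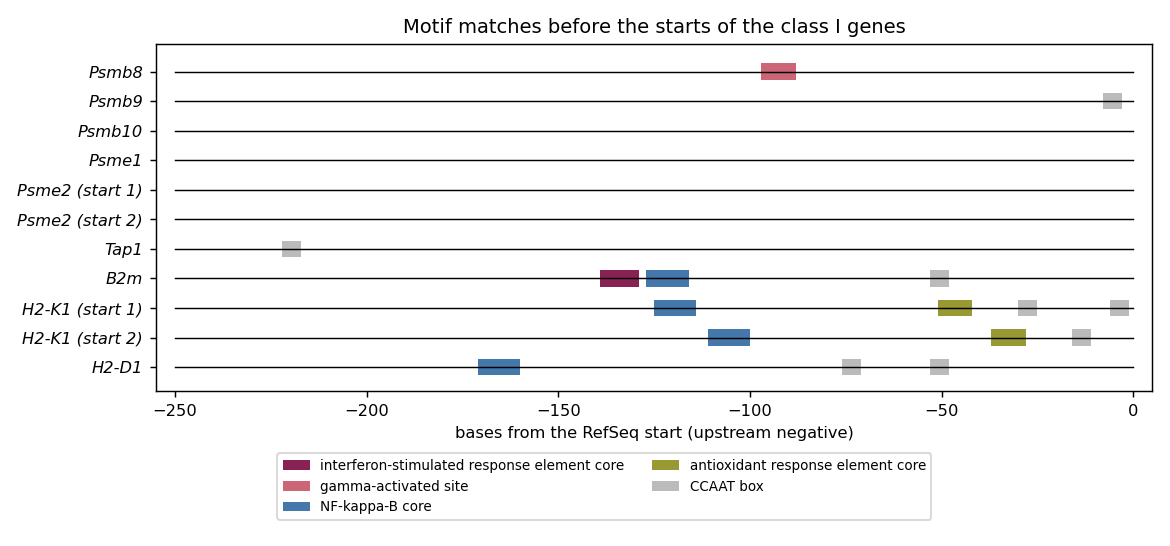
Matches to 5 motifs in the 250 bases before each RefSeq start of the members (x axis: bases from the start, upstream negative; y axis: gene, with each start for genes that have more than 1; colour: motif). NF-kappa-B cores stand before B2m, H2-K1 and H2-D1, and the lines of Psmb10, Psme1 and Psme2 are empty.

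Libraries held from 25016754 to 34877090 counts. Levels below are CPM, counts scaled to a common library size, after scaling all 12 libraries by the TMM method, as mean ± SD over 3 libraries unless given per library. A log2 fold change is from edgeR's quasi-likelihood test with its standard error (SE), and a gene was called at a Benjamini-Hochberg adjusted p under 0.05 over all genes tested. Summed fibroblast markers (10 genes, Col1a1 and Pdgfra among them) stood at 14000 to 19620 CPM in vehicle libraries of both times, 13890 to 16370 in treated libraries at 4 h and 6752 to 7095 in treated libraries at 24 h. The cells thus carried the markers of their label. Macrophage and leukocyte markers were also present: 12 of 14 listed were in the tables, and their sum was 72.4 to 111 CPM at 4 h, 369 to 434 in vehicle at 24 h and 160 to 183 with the compound at 24 h. Endothelial markers summed to 46.5 to 61.1 CPM over all libraries. Cardiomyocyte markers summed to 5.604 to 8.86 CPM with the compound at 24 h and 11.05 to 21.8 in the other groups. Nearly all of this was Tnnt2, with means at 24 h of 17.5 CPM in vehicle and 6.50 with the compound. Every other cardiomyocyte marker stood at 0.784 CPM or less in each library, and 1 of the 6 was tested at 24 h. Pericyte and smooth muscle markers summed to 75.8 to 96.1 CPM at 4 h, most of it Cspg4 (means of 66.0 in vehicle and 67.2 with the compound). At 24 h the pericyte and smooth muscle sum stood at 32.0 to 37.6 CPM in vehicle and 11.1 to 14.1 with the compound. In bulk RNA, fewer cells of a type and less RNA per cell cannot be told apart.

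The 10 members differed widely in level. Per kilobase of gene model in vehicle libraries at 4 h, B2m led with 336 ± 37.9 CPM, ahead of H2-D1 (64.0 ± 8.34) and H2-K1 (47.1 ± 3.44; SD, n = 3 throughout). Psmb10, Psme1 and Psme2 followed at 7.03 ± 1.48, 6.97 ± 1.2 and 5.92 ± 2.11 CPM per kilobase, which did not differ beyond their spread. Tap2 (4.65 ± 0.81) and Tap1 (4.02 ± 0.53) likewise lay within each other's spread. Psmb8 (0.572 ± 0.121) and Psmb9 (0.197 ± 0.0523) came last. Psmb9 had 6 to 118 counts per library, so its values carry the largest counting error among the members. The constitutive Psmb5 stood at 92.3 ± 2.56 CPM per kilobase in the same libraries, Psmb6 at 39.3 ± 5.31 and Psmb7 at 24.2 ± 3.79.

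**Figure D2:**
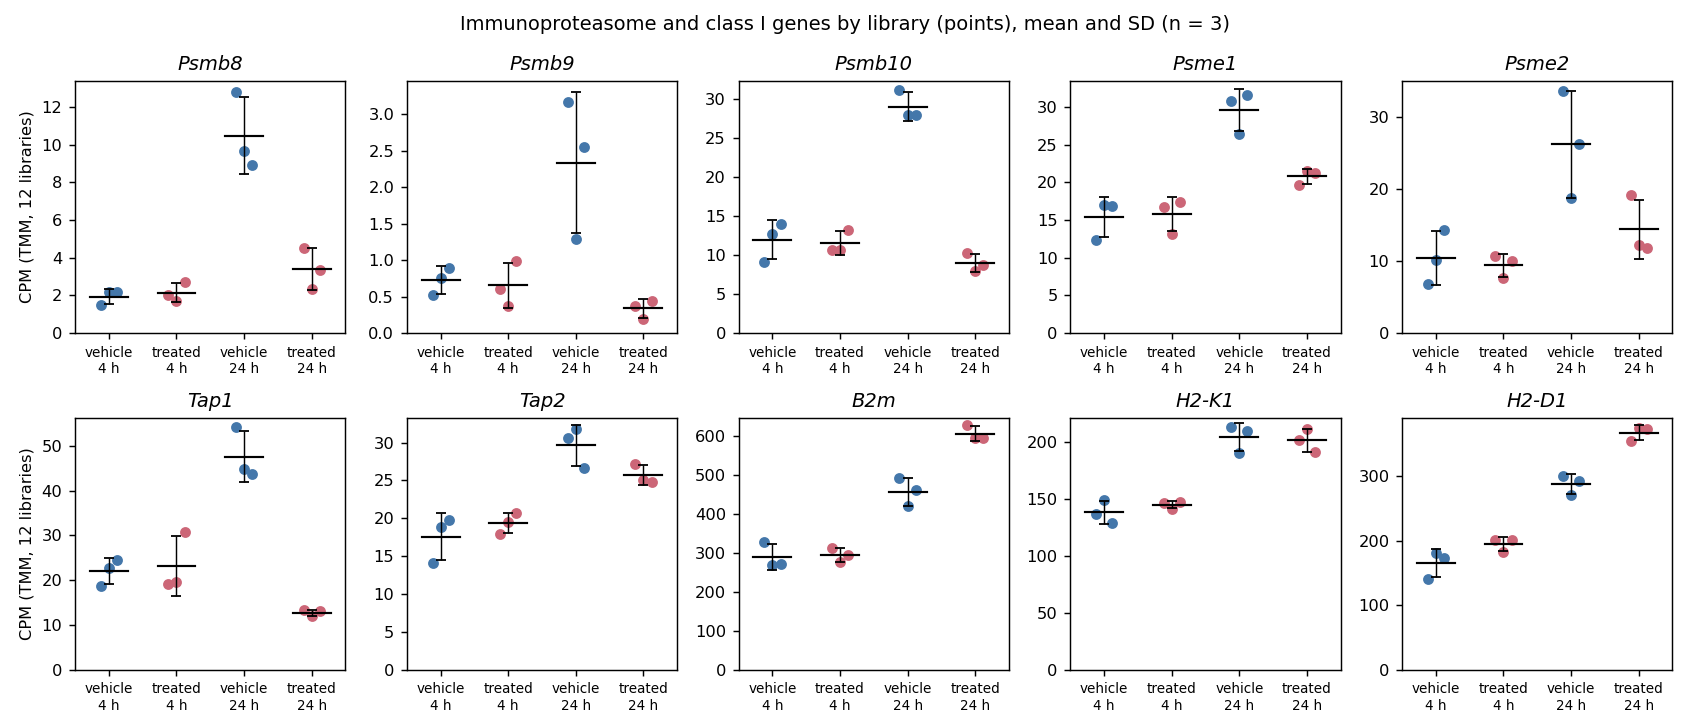
CPM of each member in every library (points), with the group mean (line) and SD (bar, n = 3), for vehicle (blue) and compound (red) at 4 h and 24 h; each panel has its own axis from 0. At 24 h the treated points of Psmb8, Psmb9, Psmb10, Psme1 and Tap1 lie below all vehicle points, and those of B2m and H2-D1 above.

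No member was called after 4 h of the compound. Tap1 stood at 18.8, 22.6 and 24.5 CPM in vehicle and 19.1, 19.5 and 30.8 CPM in treated libraries, and Psmb10 at 9.17, 12.8 and 14.0 CPM against 10.7, 10.7 and 13.3 CPM. The groups overlapped for 9 of the members. The exception was H2-D1, a class I heavy chain, with 141, 181 and 174 CPM in vehicle and 201, 183 and 201 CPM in treated libraries. Its log2 fold change was 0.24 (SE 0.10, edgeR adjusted p = 0.185), and it was the 1 member with an unadjusted p under 0.05. The log2 fold changes of the 10 members ran from -0.15 to 0.24 with a median of 0.05, beside a median of -0.01 over the 15336 genes tested. DESeq2 called 0 members as well. Over all genes at 4 h, 3.45% were called higher and 3.71% lower, against which 0 of 10 members says little. With the replicate number as a block the calls over all genes rose from 1098 to 1953, and the members still gave 0.

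Single libraries at 4 h stood apart for some members. Treated replicate 3 was the highest of the 6 libraries for Psmb8 (2.71 CPM), Psmb9 (0.986 CPM) and Tap1 (30.8 CPM), while treated replicate 2 was the lowest for Psmb9 (0.370 CPM). Psmb8 and Tap1 were lowest in vehicle replicate 1 (1.46 and 18.8 CPM). The sum of 20 interferon-stimulated effector genes was also highest in treated replicate 3 and lowest in treated replicate 2. It was 423 CPM in treated replicate 1, 216 in replicate 2 and 681 in replicate 3, against 360, 458 and 620 in the vehicle libraries. The log2 fold change of Psmb9 at 4 h ran from -0.55 to 0.15 over its 12 alternatives, and none gave a call. The part of the interferon-stimulated genes in these differences was not tested.

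After 24 h of the compound the inducible core subunits were much lower than in vehicle. Psmb10, the inducible counterpart of Psmb7, had 31.2, 28 and 28 CPM in vehicle and 10.3, 7.96 and 8.72 CPM in treated libraries, a 3.26-fold fall (log2 fold change -1.70, SE 0.10, edgeR adjusted p = 9.32e-12). Psmb8, the counterpart of Psmb5, had 12.8, 9.69 and 8.93 CPM against 4.53, 2.32 and 3.37 CPM, 3.13-fold lower (-1.65, SE 0.22, adjusted p = 4.02e-05). Psmb9, the counterpart of Psmb6, had 3.18, 1.29 and 2.56 CPM against 0.371, 0.199 and 0.443 CPM. That was 7.14-fold lower by the fit (-2.84, SE 0.41, adjusted p = 5.09e-06). All treated libraries of these genes lay below all vehicle libraries. The lowest vehicle value of Psmb9, that of replicate 2, was still above the highest treated value.

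The 2 PA28 genes moved less. Psme1 had 30.8, 26.4 and 31.6 CPM in vehicle and 19.6, 21.5 and 21.2 CPM in treated libraries, 1.43-fold lower (log2 fold change -0.52, SE 0.08, edgeR adjusted p = 1.51e-05). Psme2 had 33.7, 18.8 and 26.3 CPM against 19.2, 12.3 and 11.9 CPM, and was not called (-0.88, SE 0.33, adjusted p = 0.0658). Its groups overlapped, because vehicle replicate 2 lay just under treated replicate 1. Psme2 passed without vehicle replicate 2 (adjusted p = 0.0179) or without treated replicate 1 (0.0227), by DESeq2 (0.0161), by limma on FPKM values (0.0228), with library totals (0.0372) and in the fit over all 12 libraries (0.0259). The authors' deposited table gives Psme2 a log2 fold change of -0.87 with an adjusted p of 0.0201.

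The 2 chains of the peptide transporter differed in size of change. Tap1 had 54.1, 44.8 and 43.7 CPM in vehicle and 13.2, 11.97 and 13.1 CPM in treated libraries at 24 h, 3.76-fold lower (log2 fold change -1.91, SE 0.09, edgeR adjusted p = 4.77e-13). Tap2 had 30.5, 31.8 and 26.6 CPM against 27.2, 25.0 and 24.8 CPM, a log2 fold change of -0.21 (SE 0.08, adjusted p = 0.0205), with overlapping libraries. The call of Tap2 ended with DESeq2 (adjusted p = 0.0568), in the fit over all 12 libraries (0.115), without vehicle replicate 1 or 2 (0.0684 and 0.0837) and without treated replicate 2 or 3 (0.0718 and 0.0602). The authors' deposited table gives Tap2 an adjusted p of 0.0660. In vehicle libraries at 24 h Tap1 and Tap2 stood at 8.69 ± 1.05 and 7.84 ± 0.72 CPM per kilobase, within their spread, and in treated libraries at 2.33 ± 0.13 and 6.79 ± 0.35.

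RNA of the chains of the class I molecule was not called lower after 24 h in the main fit, and protein was not measured. B2m, the light chain, had 491, 420 and 462 CPM in vehicle and 628, 596 and 595 CPM in treated libraries, 1.32-fold higher (log2 fold change 0.40, SE 0.06, edgeR adjusted p = 2.95e-06). H2-D1 had 300, 271 and 292 CPM against 354, 375 and 372 CPM, 1.27-fold higher (0.35, SE 0.05, adjusted p = 2.71e-06). H2-K1, the other classical heavy chain of this strain, had 213, 190 and 210 CPM against 202, 211 and 191 CPM and was not called (-0.03, SE 0.05, adjusted p = 0.65). Treated libraries of B2m and H2-D1 lay above all vehicle libraries, and those of H2-K1 overlapped them. With the counts of H2-K1 and H2-D1 summed, the pair rose by 0.20 (SE 0.05, adjusted p = 0.000998). Scaled by library totals alone, H2-K1 was called lower (-0.22, adjusted p = 0.00253), while B2m and H2-D1 remained called higher. That scaling put the median of all genes at -0.21 in place of -0.02.

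In all, 6 of the 10 members were called lower at 24 h and 2 higher, and their median log2 fold change was -0.70. Over the 15575 genes tested, 38.0% were called lower and 36.7% higher, with a median of -0.02, and 39.0% of all calls were higher under library totals in place of 49.1%. At 4 h the same share went from 48.2% to 34.5%. Macrophage and leukocyte markers were lower in treated libraries at 24 h: 9 of 11 tested were called lower and 2 higher (1 higher with library totals), with a median of -1.96. Fibroblast markers were mostly lower too, with 8 of 10 called lower, 1 higher and a median of -1.59. At 4 h Lyz2 was the 1 macrophage or leukocyte marker called (log2 fold change -0.58, edgeR adjusted p = 0.0214). At that time 3.45% of all genes were called higher and 3.71% lower. The complement genes C1qa, C1qb and C1qc were 5.20-fold, 9.97-fold and 6.36-fold lower, and Lyz2, a lysozyme, 2.78-fold. Ptprc, the pan-leukocyte CD45 gene, was 1.58-fold lower, whereas Csf1r, the macrophage growth factor receptor, was 1.17-fold higher and the lipopolysaccharide coreceptor Cd14 2.13-fold higher. Ptprc, Csf1r and Cd68 were detected in all 12 libraries, Fcgr1 was at 0 in 1 treated library at 24 h and Aif1 at 0 in 2 of the 12. The part of these cell types in the fall of Psmb8, Psmb9, Psmb10 and Tap1 was not tested.

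**Figure D3:**
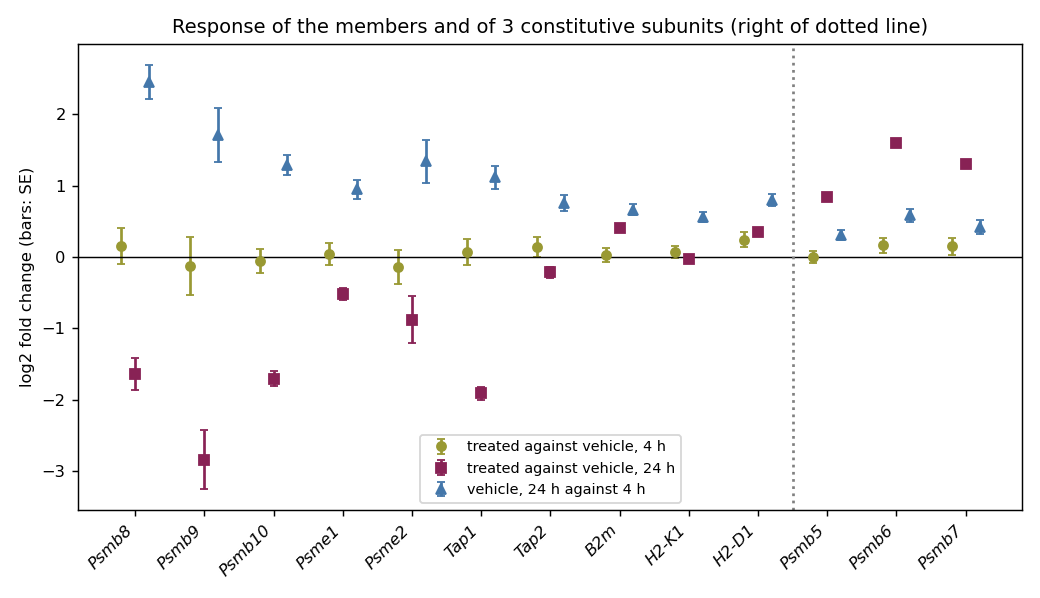
Log2 fold change with its SE for the 10 members and for Psmb5, Psmb6 and Psmb7 (right of the dotted line), for compound against vehicle at 4 h (circles) and 24 h (squares) and for vehicle at 24 h against 4 h (triangles). Squares reach -2.84 at Psmb9 and lie above 0 for B2m, H2-D1 and the constitutive subunits, and every triangle lies above 0.

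Vehicle cells had gained these genes between 4 h and 24 h. All 10 members were called higher in vehicle at 24 h than at 4 h, where 27.4% of all 16341 genes tested were called higher and 27.0% lower. Their median log2 fold change was 1.03, beside 0.01 over all genes. Psmb8 rose 5.45-fold (2.45, SE 0.24, edgeR adjusted p = 1.53e-07), Psmb9 3.27-fold, Psme2 2.53-fold, Psmb10 2.43-fold and Tap1 2.17-fold. H2-K1 rose least, 1.48-fold (0.56, SE 0.07, adjusted p = 2.5e-06). All vehicle libraries at 24 h lay above all those at 4 h for each member. These vehicle libraries at 24 h are also the controls of the 24 h response, so the 2 comparisons are not independent. All 11 tested macrophage and leukocyte markers rose in the same comparison, with a median of 2.03, and their part in the rise was not tested. The 2 times have separate deposited tables, and the group names of the 24 h table carry a prefix that the labels do not explain, so time cannot be told apart from anything else that differed between these sets of libraries.

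In treated cells the same interval gave a mixed picture. This comparison was added after the values had been seen. Of the 10 members, 6 were called higher at 24 h than at 4 h and 2 lower, where 30.0% of all genes were called higher and 31.9% lower. Tap1 went from 23.1 ± 6.64 to 12.8 ± 0.683 CPM, 1.82-fold lower (log2 fold change -0.86, SE 0.17, edgeR adjusted p = 0.000425), and Psmb10 was 1.29-fold lower (adjusted p = 0.0406). Psmb9 was not called (-0.99, SE 0.49, adjusted p = 0.0883). B2m rose 2.06-fold and H2-D1 1.88-fold, and H2-K1, Tap2, Psme1 and Psmb8 rose by 1.39-fold, 1.33-fold, 1.32-fold and 1.57-fold. The call of Psmb10 ended without treated replicate 3 of 4 h or without treated replicate 2 or 3 of 24 h (adjusted p = 0.208, 0.166 and 0.101). That of Psmb8 ended in 6 alternatives, with adjusted p up to 0.218, and that of Psme1 ended with library totals and without treated replicate 2 of 4 h (0.0739 and 0.0844). Psmb9 passed without treated replicate 2 of 4 h (-1.27, adjusted p = 0.0399).

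Ordered by level, the 4 groups gave a different sequence for different members. For Tap1, vehicle at 24 h stood highest (47.6 ± 5.73 CPM), the groups at 4 h next (23.1 ± 6.64 and 21.99 ± 2.93, not told apart), and the compound at 24 h lowest. Psmb10 had the same order, with 29.1 ± 1.84, 11.99 ± 2.52 and 11.6 ± 1.49, and 8.99 ± 1.2 CPM, but its treated libraries at 24 h overlapped vehicle at 4 h. For B2m and H2-D1 the compound at 24 h was highest, at 606 ± 19.0 and 367 ± 11.4 CPM, above vehicle at 24 h at 457 ± 36.0 and 287 ± 15.1 CPM. For H2-K1 the 2 groups at 24 h (204 ± 12.4 in vehicle and 201 ± 9.94 with the compound) did not differ beyond their spread and lay above both groups at 4 h (138 ± 10.1 and 145 ± 3.48 CPM). By group mean, each of Psme1, Tap2 and Psmb8 was highest in vehicle at 24 h and second highest with the compound at 24 h. Libraries of Tap2 overlapped between the 2 groups at 24 h, and treated libraries of Psmb8 overlapped between 24 h and 4 h.

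The response itself differed between the times for 6 members, by the interaction term of the fit over all 12 libraries. The difference, the log2 response at 24 h minus that at 4 h, was -2.70 for Psmb9 (SE 0.62, edgeR adjusted p = 0.00118), -1.98 for Tap1 (SE 0.23, 5.03e-06), -1.80 for Psmb8 (SE 0.35, 0.000282) and -1.65 for Psmb10 (SE 0.20, 2.05e-06). It was -0.55 for Psme1 and 0.38 for B2m. Thus 5 of the 10 differed downward and 1 upward, where 27.1% of all genes differed downward and 26.7% upward. Psme2, Tap2, H2-K1 and H2-D1 were not called (adjusted p = 0.191, 0.0795, 0.474 and 0.445). The difference of B2m lost its call with library totals (0.24, adjusted p = 0.109) and that of Psme1 without treated replicate 3 of 4 h (-0.47, adjusted p = 0.0541).

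The constitutive core moved the other way. All 14 genes of the constitutive core (Psma1 to Psma7 and Psmb1 to Psmb7) were called higher at 24 h, where 36.7% of all genes were. Their log2 fold changes ran from 0.84 to 2.08 with a median of 1.33. At 4 h, where 3.45% of all genes were called higher and 3.71% lower, edgeR called 0 of the 14. DESeq2 called 0 of them as well, and 2 had an unadjusted p under 0.05 by edgeR. In the fit over all 12 libraries Psmb3 passed at 4 h (0.28, edgeR adjusted p = 0.0368). Psmb3 (2.08), Psma5 (1.81) and Psma1 (1.65), structural subunits of the core, had the largest changes. Of the replaceable subunits, Psmb5 rose from 103 ± 3.51 to 185 ± 10.6 CPM, Psmb6 from 110 ± 1.54 to 336 ± 28.9 CPM and Psmb7 from 111 ± 5.94 to 274 ± 19.9 CPM.

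The ratio of an inducible subunit to its constitutive counterpart was taken within each library from FPKM values, so that scaling between libraries plays no part. Psmb10 stood at 54.3, 49.9 and 54.1 FPKM per 100 FPKM of Psmb7 in vehicle at 24 h and at 7.45, 6.32 and 6.00 with the compound, 8.04-fold lower. Psmb8 stood at 3.37, 2.41 and 2.36 per 100 of Psmb5 against 0.657, 0.352 and 0.455, 5.67-fold lower. Psmb9 stood at 1.48, 0.601 and 1.17 per 100 of Psmb6 against 0.0561, 0.0333 and 0.0623, 20.8-fold lower. For each of the 3 pairs the treated libraries at 24 h lay below all vehicle libraries. The two-sided exact permutation test gave p = 0.1 for each pair, the smallest that 3 against 3 libraries allow, or 0.2 after Benjamini-Hochberg adjustment over 6 tests. At 4 h the ratios overlapped, with means of 28.9 ± 1.78 and 25.5 ± 4.83 for Psmb10 (exact permutation p = 0.3), 0.622 ± 0.143 and 0.685 ± 0.124 for Psmb8 (p = 0.7) and 0.497 ± 0.0822 and 0.406 ± 0.197 for Psmb9 (p = 0.5). Most macrophage and most fibroblast markers were lower in the treated libraries at 24 h, and their part in the ratios was not tested.

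**Figure D4:**
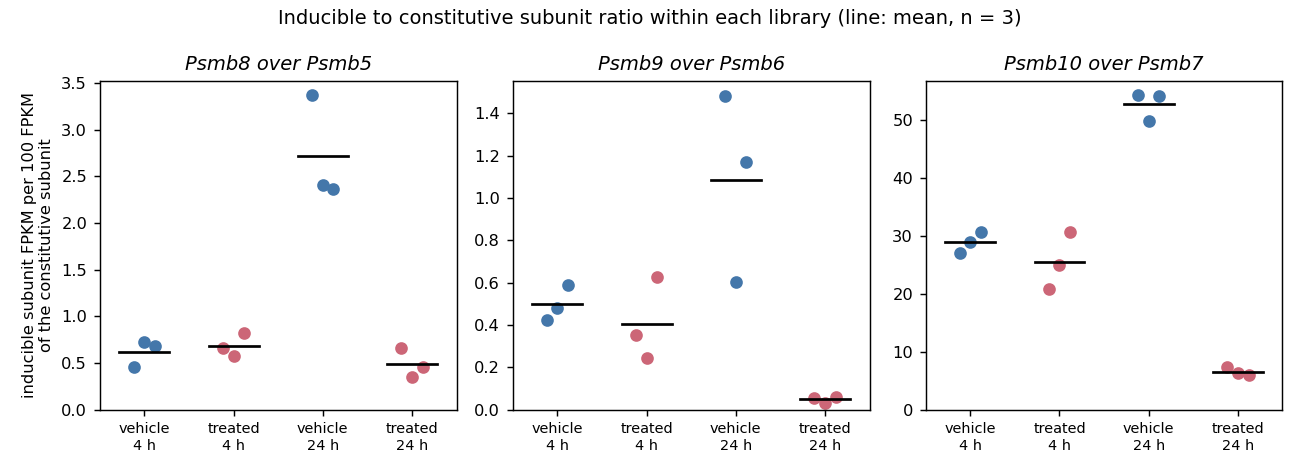
Inducible subunit FPKM per 100 FPKM of its constitutive counterpart in each library (points) with the group mean (line, n = 3), for vehicle (blue) and compound (red) at 4 h and 24 h; each axis starts at 0. In all 3 panels the mean of vehicle at 24 h is highest, and the treated points at 24 h lie below all vehicle points of that time. For Psmb9 the lowest vehicle point at 24 h (0.601) lies under the highest treated point at 4 h (0.626).

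Other proteasome regulators were mostly higher at 24 h: 6 of 9 tested rose and 2 fell, with a median log2 fold change of 0.46. Of all genes, 36.7% were called higher and 38.0% lower. Psme4, which encodes the PA200 activator, rose by 1.72 (SE 0.05) and Pomp, the maturation factor of the core, by 0.78 (SE 0.05). The assembly chaperone genes split, with Psmg3 at 0.66 and Psmg1 and Psmg2 at -0.85 and -0.65. At 4 h, where 3.45% of all genes were called higher and 3.71% lower, edgeR called 0 of the 9. Of these, 2 had an unadjusted p under 0.05 by edgeR, and DESeq2 called Psme4 (0.33, adjusted p = 0.0499). Psme4 also passed there with the replicate number as a block (0.33, edgeR adjusted p = 0.0206).

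Genes that trim and load peptides were divided at 24 h, with 6 of 12 higher, 5 lower (5 and 6 with library totals) and a median of 0.03. Over all genes 36.7% were higher and 38.0% lower. Among those that fell, Tapbp, which encodes tapasin and bridges the transporter to class I, went from 93.1 ± 12.3 to 66.1 ± 3.68 CPM (log2 fold change -0.50, SE 0.10, edgeR adjusted p = 0.0013). Tapbpl, a tapasin-related peptide editor, fell by 0.51 on the log2 scale and Erap1, the aminopeptidase of the endoplasmic reticulum, by 0.38. Of the other chaperones of class I loading, Pdia3 rose by 0.30 and Calr by 0.13 (edgeR adjusted p = 5.47e-06 and 0.0139). The largest rises were those of the peptidase genes Nrd1 (0.96) and Tpp2 (0.79) and of the lectin chaperone gene Canx (0.59). Tapbp was not called at 4 h (0.31, adjusted p = 0.0956), but passed with the replicate number as a block (adjusted p = 0.0271).

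Among other class I and class I-like heavy chains, 7 of 14 tested fell at 24 h and 3 rose, with a median of -0.13. The shares over all genes were 38.0% lower and 36.7% higher. H2-Q4 (-1.003, SE 0.09) and H2-T22 (-0.89, SE 0.07), nonclassical class I genes, and Ulbp1 (-0.94, SE 0.08), a stress ligand of the NKG2D receptor, fell most. Cd1d1, which presents lipids, rose by 1.73 (SE 0.15), and Hfe, a class I-like regulator of iron uptake, by 0.69 (SE 0.11). At 4 h Ulbp1 was not called (-0.28, adjusted p = 0.152) but passed with the replicate number as a block (0.0353). H2-Q6 and H2-Q7 had at most 9 and 17 counts in any library and were not tested. Class II presentation genes, a mark of professional antigen-presenting cells, were near the limit of detection: 4 of 7 were tested at 24 h and none was called by edgeR (1 had an unadjusted p under 0.05, and 0 were called by DESeq2; 1 was lower with library totals), and their sum was 5.89 to 7.82 CPM in all 12 libraries. Ciita, the class II coactivator, stood at 0.444 CPM or less in every library and was not tested at 24 h.

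Among regulators of these genes at 24 h, 9 of 25 rose, 10 fell (15 with library totals) and the median was -0.08. These counts were near the shares over all genes, 36.7% higher and 38.0% lower. Irf1, an activator of immunoproteasome and transporter genes, had 13.2, 12.8 and 11.6 CPM in vehicle and 2.47, 2.75 and 2.08 CPM in treated libraries, 5.12-fold lower (log2 fold change -2.36, SE 0.14, edgeR adjusted p = 1.6e-11). Irf7, a factor of the type I interferon response, fell by 2.58 (SE 0.24). All treated libraries of both genes lay below all vehicle libraries. Nlrc5 was not called (7.98 ± 1.15 and 9.32 ± 1.29 CPM, 0.22, SE 0.14, adjusted p = 0.158), although it passed without treated replicate 3 (adjusted p = 0.0414). Rfxap (0.83) and Rfxank (0.72), subunits of the RFX complex at MHC promoters, and the NF-kappa-B subunit gene Relb (0.70) rose.

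At 4 h, Socs3, a feedback inhibitor of cytokine signaling, was the 1 of 25 regulators called (0.65, SE 0.15, edgeR adjusted p = 0.021). Over all genes at 4 h, 3.45% were called higher and 3.71% lower, against which 1 call of 25 says little. Leaving out vehicle replicate 3 (edgeR adjusted p = 0.0633), treated replicate 2 (0.121) or treated replicate 3 (0.0832) ended the call of Socs3. Irf1 was not called at 4 h (-0.46, SE 0.22, adjusted p = 0.232), but passed without vehicle replicate 1 (-0.66, adjusted p = 0.0269).

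Interferon-stimulated effector genes, which share inducers with the members, fell throughout at 24 h. All 19 of 19 tested were called lower, where 38.0% of all genes were, with a median of -2.42. Iigp1 (-5.28, SE 0.72), a GTPase against intracellular parasites, Ifit1 (-4.12, SE 0.49), an RNA-binding antiviral factor, and the chemokine gene Cxcl10 (-3.97, SE 0.51) had the largest changes. The sum over the 20 listed genes was 1559, 1200 and 1028 CPM in vehicle and 304, 279 and 258 CPM in treated libraries. In vehicle, 12 of 19 were higher at 24 h than at 4 h and 0 lower, where 27.4% of all genes were higher and 27.0% lower. The part of this fall, or of that in Irf1, in the lower levels of the members was not tested.

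**Figure D5:**
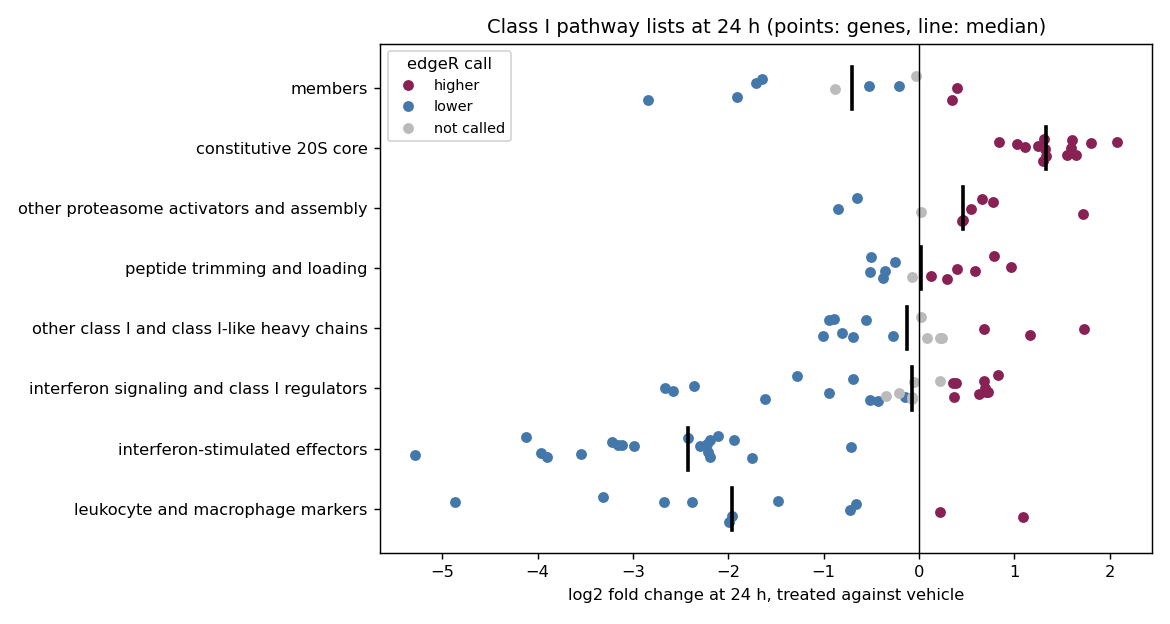
Log2 fold change at 24 h, compound against vehicle, of each tested gene (points, coloured by the edgeR call) in the members, 6 related pathway lists and the macrophage and leukocyte markers, with the list median (line). The constitutive core lies wholly above 0 and the interferon-stimulated effectors wholly below, and the members span from -2.84 to 0.40.

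Across the 12 libraries the members formed a gradient and not a single pattern. Log2 CPM of Tap1 correlated with that of Psmb10 at r = 0.953 and of Psmb9 at 0.935, and that of B2m with H2-D1 at 0.932 and with H2-K1 at 0.904. Tap1 and B2m gave r = -0.206. Psmb8 correlated best with Psme2 (0.922) and Psme1 (0.921), and Tap2 best with Psme1 (0.879). These are descriptions over 12 libraries in 4 groups, which share their group differences. The genes outside the list that ran most like the mean of the members' standardised values, among 10177 protein-coding genes of at least 5 CPM on average, were Itm2b (r = 0.989), H2-T22 (0.989), Ndufa6 (0.977), Lgals3bp (0.976), Tubb4b (0.968), Hexa (0.968), Fam13c (0.967), Cd68 (0.967), Wipi1 (0.966) and Arap1 (0.964) over 12 libraries. Cd68 is a macrophage marker and H2-T22 a nonclassical class I gene. Among the members, that mean followed Psmb8 (r = 0.976) and Psme1 (0.975) most closely and Tap1 (0.609) and B2m (0.621) least. Likeness to it is therefore not likeness to every member.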

How the data were processed

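RNA of 12 libraries of cultured mouse cardiac fibroblasts, 3 in each of 4 groups named by the labels, was sequenced by the authors. Per the submitters' processing notes, which give no roles, the authors worked on GRCm39 with the tools HISAT2 (2.0.5), DESeq2 and featureCounts (1.5.0-p3). Per the file headers, each time point has a deposited table with raw counts per gene, counts divided by a size factor (signal, used to check the columns), FPKM, and the authors' log2 fold change with p-value and adjusted p-value. Genes absent from 1 of the 2 tables were entered as 0 counts in fits over all libraries.

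Raw counts were tested with edgeR 4.0.16 (quasi-likelihood, robust, default low-count filter, TMM; limma 3.58.1, R 4.3.3). Responses at 4 h and 24 h were fitted on their own 6 libraries, the other comparisons on all 12. Alternatives were DESeq2 1.42.0, its type of size factors, library totals, no filter, limma on log2(FPKM + 1), all 12 libraries, a replicate block, summed H2-K1 and H2-D1, and leaving out each library. The fit was tested on simulated counts. Libraries with the same replicate number deviated together weakly at 4 h (r = 0.226, 0.189 and 0.29 over genes), so the numbers may pair those libraries. At 24 h no such match was clear (0.122, 0.078 and -0.138). Vehicle libraries of the 2 times also matched best by number (0.031, 0.149 and 0.155). The main fits did not use pairing.

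The members, the pathway and marker lists and the rule for naming genes (of each list, up to 3 genes called at 4 h and at 24 h with the largest change in each direction and at least 1 FPKM, plus the 10 genes most like the members and Psmb5, Psmb6, Psmb7, Tapbp, Nlrc5, Irf1 and Ciita) were chosen with earlier results of these data known. Csf1r, Cd14, the other marker genes, Pdia3, Calr, H2-Q6, H2-Q7 and Psme2b were named after their values were seen. Nrdc was matched as Nrd1. Promoter sequences came from RefSeq on GRCm38.p6, whose coordinates were not joined to those of the tables. One gene that the rule names is not reported here.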

Additional observations from a re-analysis of the deposited data

Results flagged for a closer look

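The response to the compound differed between 24 h and 4 h for 6 of the 10 members by edgeR's interaction term over all 12 libraries. By the same term 26.7% of the 16341 genes tested differed upward and 27.1% downward, so such differences were common among all genes. The difference (log2, 24 h minus 4 h) was -1.795 for Psmb8, -2.697 for Psmb9, -1.646 for Psmb10, -0.549 for Psme1, -1.977 for Tap1 and 0.38 for B2m. Groups of 3 libraries are too small for a check of single outlying values.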

How the results depend on the processing

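No member's called fold change changed sign under any alternative run. At 4 h, all 129 values of single members under the alternatives kept their side of the threshold, and 0 members were called under each. At 24 h, 124 of 139 kept it, 6 lost a call (all Tap2) and 9 gained one (7 for Psme2, and H2-K1 with library totals and when summed with H2-D1). Without 1 library, 5 to 7 members were lower and 2 higher. For the difference between times, 1 to 2 were higher (2 without vehicle replicate 1 of 4 h) and 4 to 6 lower. Vehicle at 24 h against 4 h kept 10 higher under every alternative. For treated libraries 4 to 6 were higher and 1 to 3 lower. With library totals, 0 members had a higher difference between times in place of 1, because the call of B2m was lost. The replicate block left the counts of members called as they were, except at 24 h. There 7 were lower in place of 6, since Psme2 passed (edgeR adjusted p = 5.57e-07). Replicate numbers showed no clear pairing of treated and vehicle libraries at 24 h. Calls over all genes at 4 h, 529 higher and 569 lower, were 920 and 1033 with the replicate block, 1059 and 1139 with all 12 libraries, 921 higher without vehicle replicate 1, and as few as 222 and 221 without treated replicate 3. Without 1 library, the log2 difference in ratio at 24 h ran from -2.741 to -2.29 for Psmb8, -4.752 to -4.099 for Psmb9 and -3.098 to -2.942 for Psmb10. Of 1944 counts of calls in the other lists, 68 moved by over 1.5 times. Psmb9 had 6 to 118 counts per library. Limma on log2(FPKM + 1) put its change at 24 h at -0.556 in place of -2.84, a scale on which the pseudocount of 1 exceeds its mean FPKM in both groups (0.612 and 0.0875).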
